A study of Mus musculus with 11 samples.

Results

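The loss of galectin-3 from transferred CD8 T cells was examined in hosts that all lacked galectin-3 themselves. KO T cells in KO hosts (4 arrays) were set against WT T cells in KO hosts (3 arrays). By the labels, the host genotype was the same in both groups and the genotype of the T cells differed. The labels name no batch, so other differences between the groups could not be checked. These 7 of the 11 arrays of the series were chosen by the genotypes of T cell and host in their labels. All rows that name exactly 1 gene entered the comparison, with the row of highest mean per gene, and 15194 genes were tested. The other 4 arrays held WT T cells in WT hosts and are cited for single genes and for the mitosis list and, like the 7, entered the estimate of the spread. KO T cells in WT hosts are not among the 3 groups of the design, so the same contrast in a WT host could not be made.

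Galectin-3, encoded by Lgals3, is a lectin that binds galactose-containing glycans and can link several glycoproteins into a lattice on the cell surface. Activated T cells can make it themselves or take it up from their surroundings, and it is known to bind the T cell receptor complex, CD45, CD8 and the inhibitory receptor LAG-3 on T cells. Inside cells it is found in the cytoplasm and nucleus, where it has been tied to cell survival, to RNA splicing and to the handling of damaged endosomes. In a KO host the cells of the host cannot make galectin-3, while the genotype of the implanted tumor cells and of the vaccine cells is not given in the labels.

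In every group the donors were mice with a transgenic T cell receptor whose CD8 T cells carried Thy1.2, and the donor's galectin-3 genotype was KO or WT. The hosts used here were galectin-3 KO mice bearing NT2.5 cells, a mouse mammary tumor line grown in the mammary fat pads, and WT hosts were treated alike. Cyclophosphamide, a cytotoxic drug, was given at 100 mg/kg on day 8. A vaccine of whole cells that secrete GM-CSF, a cytokine, followed on day 9, and the T cells on day 10. The T cells were sorted on Thy1.2 from tumors taken 5 days after the transfer. By the design text each group had 4 biological replicates, while 3 arrays of WT T cells in KO hosts were among the 11 given. Whether 1 mouse or a pool of mice gave the RNA of an array is not stated in the labels, nor is the age or sex of the mice or the way the galectin-3 allele was disrupted. The hosts kept immune cells of their own, which the sort on Thy1.2 was meant to leave out.

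The values are log2 signals after normalization by the authors, and differences are means of KO T cells minus means of WT T cells, both in KO hosts, with the standard error (SE) of the limma fit. Across genes, arrays correlated at 0.961 to 0.971 among KO T cells, at 0.964 to 0.968 among WT T cells and at 0.963 to 0.974 between the groups. The first principal component of the 7 arrays held 22.5% of their variance, and array 3 of the KO T cells stood apart on it at 25.8, against -14.3 to -11.5 for the other KO arrays and -10.4 to 12.5 for WT T cells. The sorted cells carried CD8 T cell transcripts in every array. Cd8a, the alpha chain of the CD8 coreceptor, lay at 10.99 to 11.14 in KO T cells and at 10.97 to 11.31 in WT T cells, against a floor of 4.33 below which genes were not tested. Thy1, the gene of the sorting marker, lay at 9.79 to 10.23 in KO T cells and at 9.72 to 9.99 in WT T cells. In bulk samples, fewer cells of a type and less RNA per cell cannot be told apart.

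Lgals3 itself separated the groups. Its log2 signal was 7.39, 7.54, 7.26 and 7.54 in the 4 arrays of KO T cells and 8.35, 8.02 and 8.45 in the 3 arrays of WT T cells in KO hosts. WT T cells in WT hosts gave 8.49, 8.15, 8.17 and 8.41. All 4 KO arrays lay below all 7 WT arrays, and the WT arrays from KO and from WT hosts overlapped. The mean was 7.43 ± 0.14 (SD, n = 4) in KO T cells and 8.27 ± 0.22 (SD, n = 3) in WT T cells, a difference of -0.84 (SE 0.14). The exact two-sided permutation p was 0.0286, the smallest that the 35 arrangements of 4 against 3 arrays allow, and the limma adjusted p over all genes was 0.661. No other gene had as low a p, and a single row of the table names Lgals3. Signal remained in KO T cells, and the sources used here do not say whether the row's probes fall inside the deleted sequence.

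No gene passed the threshold of a limma adjusted p under 0.05. The count was 0 of 15194 genes (0%), at an adjusted p under 0.1 it was also 0, and the lowest adjusted p was 0.661. An unadjusted p under 0.05 was reached by 519 genes (3.42%), of which 294 (1.93%) were higher and 225 (1.48%) lower in KO T cells. If no gene differed, a share of about 0.05 would reach this p, so the 3.42% is no excess. The 7 arrays did not overlap between the groups for 619 genes (4.07%), 344 of them (2.26%) higher in KO T cells and 275 (1.81%) lower. A difference above 0 was found for 8084 genes (53.2%) and one below 0 for 7110 (46.8%), with a median of 0.01. Differences were small beside their errors. The median absolute difference was 0.10 and the median SE 0.16, and 38 genes differed by at least 1, of which 20 were higher and 18 lower in KO T cells. Without array 3 of the KO T cells, 818 of the 15194 genes had an unadjusted p under 0.05 and 0 passed after adjustment. The genes below are therefore described by their values, and each is one of many with a similar p.

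**Figure D1:**
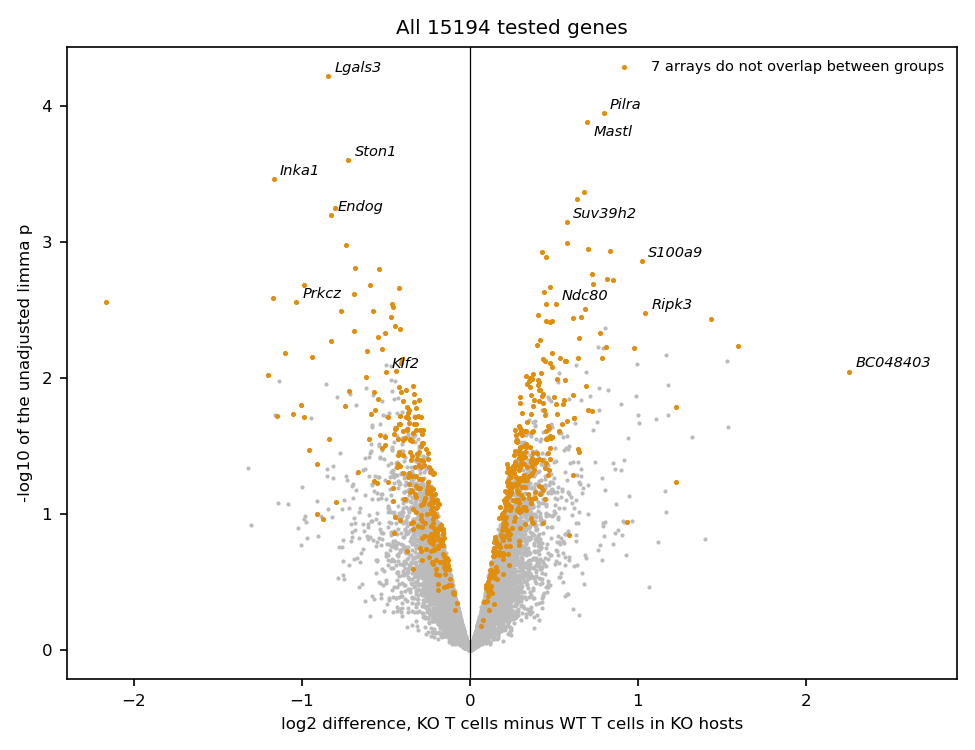
Difference between KO and WT T cells in KO hosts (horizontal axis, log2) against the unadjusted limma p (vertical axis, -log10) for the 15194 genes tested. Orange points mark the 619 genes whose 7 arrays do not overlap between the groups, and Lgals3, at -0.84, is the highest point.

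After Lgals3, the gene of lowest p was Pilra, an inhibitory receptor that myeloid cells carry and that binds sialylated glycoproteins. Its log2 signal was 6.00, 6.12, 5.93 and 5.55 in KO T cells and 4.95, 5.28 and 5.08 in WT T cells in KO hosts. All 4 KO arrays were above all 3 WT arrays, and above the 4.79 to 4.97 of WT T cells in WT hosts too. The difference was 0.80 (SE 0.14, limma adjusted p = 0.661). Markers of monocytes and macrophages took no common direction beside it. Of the 20 markers listed, 16 were named on the array and 14 tested, of which 5 were higher and 9 lower in KO T cells, with a median of -0.03, though 12 were higher without WT array 3, with a median of 0.15, and 10 without KO array 4, with a median of 0.05. Their mean log2 signal ran from 6.54 to 6.96 in KO T cells and from 6.60 to 7.14 in WT T cells. Csf1r, the receptor for the macrophage growth factor CSF-1, lay at 6.58 to 7.13 in KO T cells and at 6.32 to 7.16 in WT T cells. Adgre1, a surface receptor of mouse macrophages, lay at 4.56 to 4.88 in KO T cells and at 4.38 to 4.78 in WT T cells.

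The other 11 genes of lowest p that were higher in KO T cells differed by 0.43 to 1.02, and their groups did not overlap. Mastl, the Greatwall kinase of mitotic entry, had 4.90, 4.58, 4.66 and 4.83 in KO T cells and 3.97, 4.11 and 4.04 in WT T cells. All 3 WT arrays lay under the floor of 4.33 for mean signal, which Mastl passed through the KO arrays, so the difference of 0.70 (SE 0.13) is a description only. Suv39h2, a methyltransferase of histone H3 lysine 9, was higher by 0.58 (SE 0.13). Its 5.44 to 5.60 in KO T cells stood above the 4.84 to 5.09 of WT T cells. Tnfrsf12a, the receptor for the TNF family ligand TWEAK, had 7.26, 6.99, 7.32 and 6.89 in KO T cells and 6.58, 6.40 and 6.63 in WT T cells in KO hosts. In WT T cells from WT hosts Tnfrsf12a lay at 6.96 to 7.29, within the range of the KO T cells. Membrane traffic genes among these were Yipf5, of the Golgi apparatus, at 0.64 (SE 0.14), and Rab1b, a GTPase of transport from the endoplasmic reticulum to the Golgi apparatus, at 0.43 (SE 0.10). Fbxo9, an F-box protein of ubiquitin ligases, differed by 0.46, and Mterf4, which acts in the assembly of mitochondrial ribosomes, by 0.73. The zinc finger genes Zswim3 and Zfp938 differed by 0.70 and 0.83, Iqcn by 0.68, and S100a9, described below with its family, by 1.02.

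The 12 genes of lowest p on the lower side were Lgals3 and 11 others that differed by -1.17 to -0.42. Ston1, an endocytic adaptor, had 4.52, 4.44, 4.64 and 4.41 in KO T cells and 5.54, 5.17 and 4.97 in WT T cells. The difference of -0.72 (SE 0.14) had a limma adjusted p of 0.942. Inka1, an inhibitor of the kinase PAK4, had 4.84, 5.83, 5.21 and 5.09 in KO T cells and 6.89, 6.17 and 6.17 in WT T cells, a difference of -1.17 (SE 0.24). Endog, a nuclease of mitochondria, had 6.42, 6.48, 6.52 and 6.96 in KO T cells and 7.70, 7.46 and 7.09 in WT T cells in KO hosts. In WT T cells from WT hosts Endog lay at 6.58 to 7.10, where it overlapped both groups. Cdk9, the kinase that releases paused RNA polymerase II, differed by -0.68 (SE 0.17), with 6.85 to 7.38 in KO T cells and 7.59 to 8.02 in WT T cells. Cerox1, a noncoding RNA tied to respiratory complex I, differed by -0.54, the zinc finger gene Zfp146 by -0.73 and Alkbh6, of the AlkB family of dioxygenases, by -0.59. Gm7827 differed by -0.99 and 1700065J11Rik by -0.80, of which 1700065J11Rik lay at or under the floor in every KO array and passed it through the WT arrays. The elastase gene Cela1 differed by -0.69 and Smim19 by -0.42. For these genes other than Lgals3 and Ston1 the limma adjusted p was 1.

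**Figure D2:**
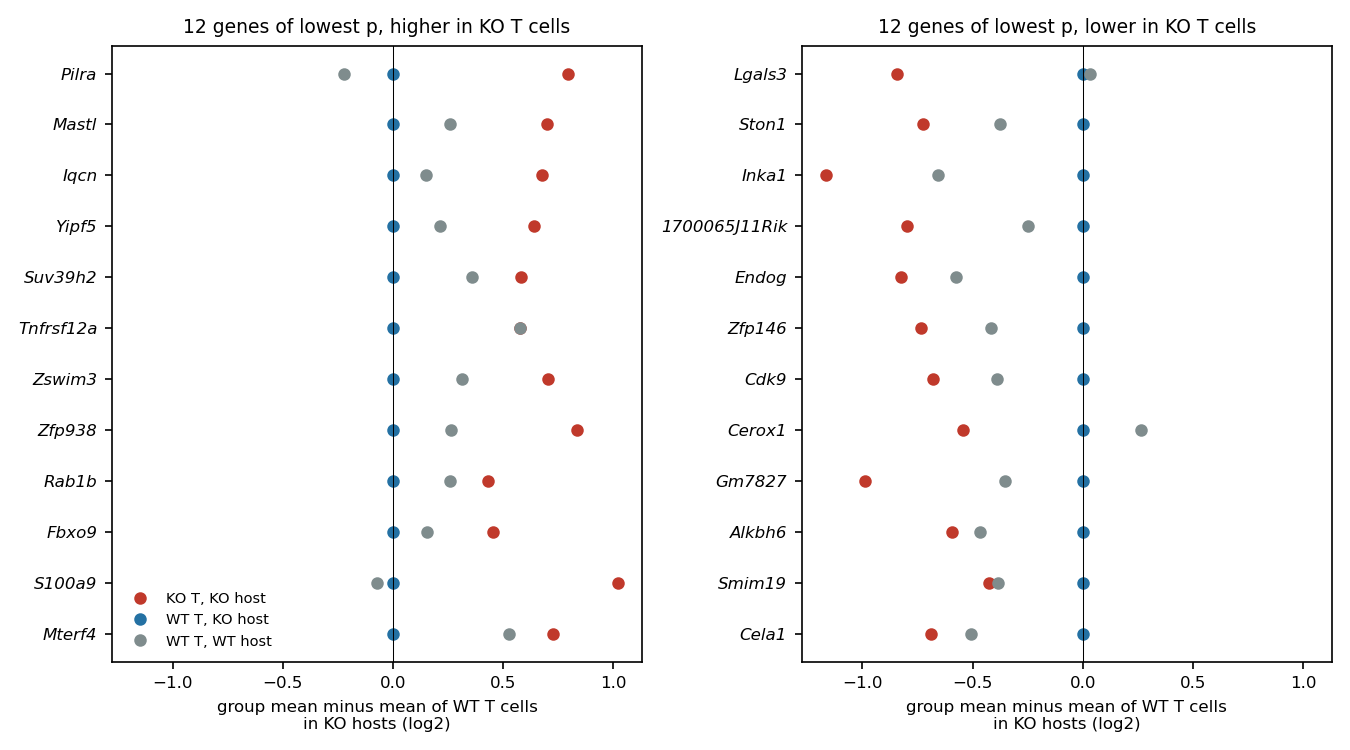
Group means relative to the mean of WT T cells in KO hosts (horizontal axis, log2) for the 12 genes of lowest p that were higher (left) and lower (right) in KO T cells. Red points are KO T cells in KO hosts, blue points, at 0 by construction, WT T cells in KO hosts, and grey points WT T cells in WT hosts. For Lgals3, Pilra, S100a9 and Cerox1 the grey point lies near the blue one or on its far side from the red one, and for most of the other genes it lies between them or beside the red one.

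The largest differences among the brighter genes, those with a mean at or above 5.30 whose groups did not overlap, had larger errors. BC048403 had 7.85, 7.91, 7.07 and 7.46 in KO T cells and 6.08, 5.73 and 4.13 in WT T cells, a difference of 2.26 with an SE of 0.73. Ripk3, the kinase of necroptosis, had 8.07, 8.75, 8.02 and 8.87 in KO T cells and 6.76, 7.51 and 7.87 in WT T cells, a difference of 1.05 (SE 0.29). The groups of Ripk3 came close to each other at WT array 3 and KO array 3. Etfbkmt, a mitochondrial lysine methyltransferase, differed by 1.59 (SE 0.48), the transcription factor gene Camta1 by 1.23 (SE 0.59) and Mdn1, which acts in the assembly of the large ribosomal subunit, by 0.93 (SE 0.55). On the lower side, Prkcz, an atypical protein kinase C, had 8.77, 8.50, 8.66 and 7.70 in KO T cells and 9.32, 9.42 and 9.58 in WT T cells, a difference of -1.04 (SE 0.28). Hmgcs1, an enzyme of cholesterol synthesis, differed by -1.15 (SE 0.42), the kinase gene Hipk2 by -1.05 (SE 0.39) and 4930412M03Rik by -1.20 (SE 0.39).

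**Figure D3:**
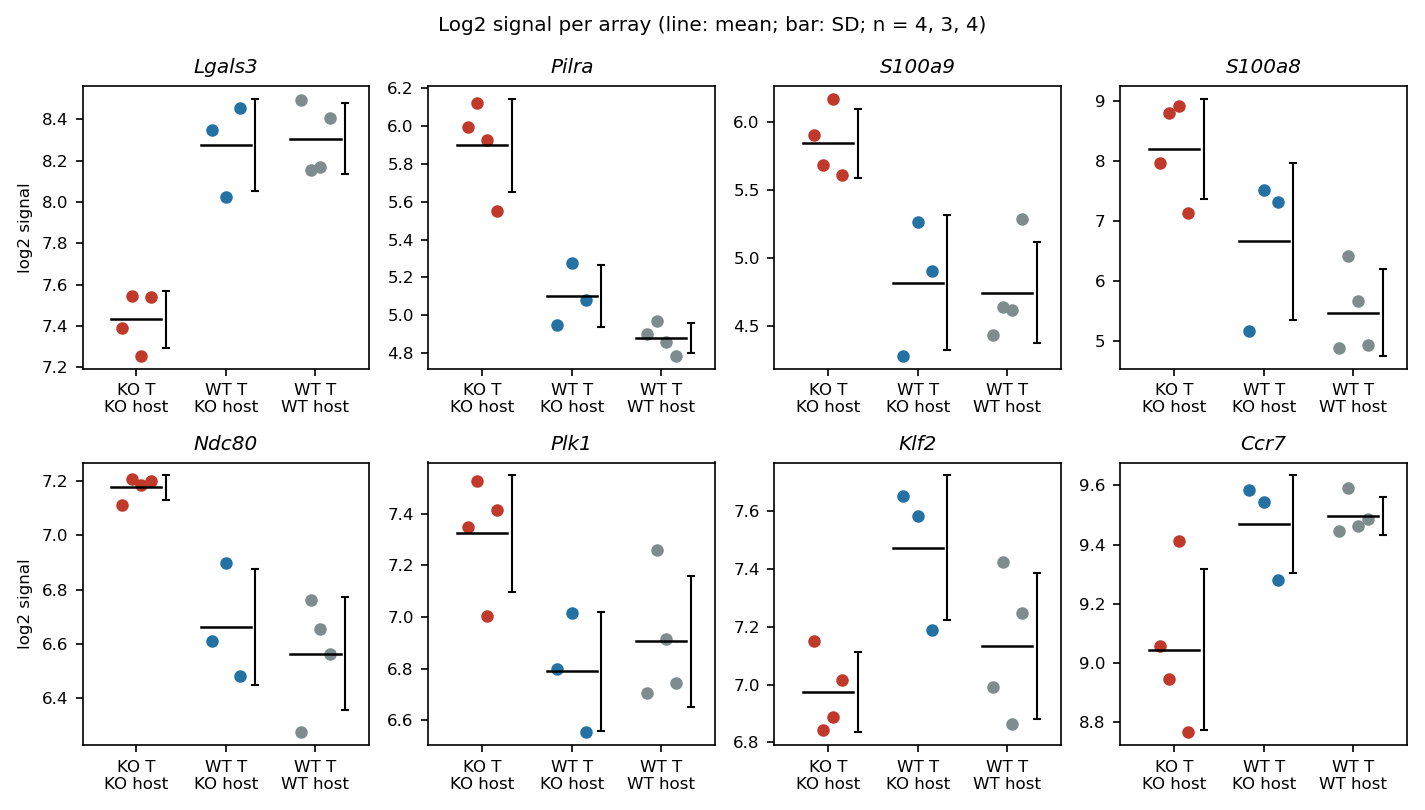
Log2 signal (vertical axes) in each array of KO T cells in KO hosts (red), WT T cells in KO hosts (blue) and WT T cells in WT hosts (grey) for 8 genes, with the mean (line) and SD (bar). The red points of Lgals3 lie below all others, those of Pilra, S100a9 and Ndc80 above all others, and those of S100a8, Plk1 and Ccr7 overlap the blue ones.

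Most cell division genes had higher means in KO T cells, by small amounts and without a call. Of 40 genes of mitosis and the kinetochore, the structure that ties chromosomes to the spindle, 39 were measured and 37 of them were higher in KO T cells, beside 53.2% of all genes. Their median difference was 0.21, against 0.01 over all genes. Of the 39, 6 reached an unadjusted p under 0.05, beside 3.42% of all genes, 0 passed after limma's adjustment, and 4 had groups that did not overlap, beside 4.07% of all genes. The promoters of 4 of them are given here because genes of this class are known to share a short element near their start, the CHR, through which the DREAM complex represses them in resting cells. The windows are RefSeq's, from 250 bases before to 50 after the transcript start on GRCm38.p6, and capitals mark TTTGAA and CCAAT on either strand, so that TTCAAA and ATTGG count too.
Ndc80, chr17:71526808-71527107, minus strand: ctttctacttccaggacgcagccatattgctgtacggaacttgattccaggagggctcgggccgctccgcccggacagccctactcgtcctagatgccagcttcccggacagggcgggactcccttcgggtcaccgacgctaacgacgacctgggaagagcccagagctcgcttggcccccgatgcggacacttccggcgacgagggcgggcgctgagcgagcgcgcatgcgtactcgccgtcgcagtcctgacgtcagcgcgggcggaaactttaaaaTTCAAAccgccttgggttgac
Plk1, chr7:122159185-122159484, plus strand: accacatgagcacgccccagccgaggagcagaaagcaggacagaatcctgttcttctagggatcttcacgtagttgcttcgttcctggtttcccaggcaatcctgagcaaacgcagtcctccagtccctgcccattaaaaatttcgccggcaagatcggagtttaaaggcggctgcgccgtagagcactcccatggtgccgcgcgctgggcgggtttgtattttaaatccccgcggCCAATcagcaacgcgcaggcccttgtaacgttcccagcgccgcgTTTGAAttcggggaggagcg
Ect2, chr3:27153829-27154128, minus strand: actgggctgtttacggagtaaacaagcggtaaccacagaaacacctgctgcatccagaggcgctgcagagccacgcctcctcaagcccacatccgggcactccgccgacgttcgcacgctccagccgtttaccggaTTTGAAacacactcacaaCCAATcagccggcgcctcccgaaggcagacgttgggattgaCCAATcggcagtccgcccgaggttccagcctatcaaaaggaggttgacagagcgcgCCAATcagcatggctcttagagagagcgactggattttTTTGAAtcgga
Prc1, chr7:80294201-80294500, plus strand: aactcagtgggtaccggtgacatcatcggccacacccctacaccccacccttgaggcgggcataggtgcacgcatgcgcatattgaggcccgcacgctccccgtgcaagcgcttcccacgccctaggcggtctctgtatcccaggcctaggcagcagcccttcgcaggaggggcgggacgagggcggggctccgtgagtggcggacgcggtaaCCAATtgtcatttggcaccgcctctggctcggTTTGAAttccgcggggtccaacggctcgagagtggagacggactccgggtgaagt
Ect2 and Prc1 each have a further window, not printed, that overlaps most of the one given. TTTGAA was found in 26 of the 37 windows of these mitosis genes (70.3%) and in 17.9% of all 32851 windows, and CCAAT in 73% and 37.4%. A match is a description of the letters and shows no binding.

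Ndc80, a kinetochore protein that binds microtubules, had 7.11, 7.21, 7.18 and 7.20 in KO T cells and 6.61, 6.90 and 6.48 in WT T cells in KO hosts. WT T cells in WT hosts gave 6.28, 6.76, 6.66 and 6.56, so that the KO arrays lay above all 7 WT arrays. The difference was 0.51 (SE 0.14, limma adjusted p = 1). Plk1, a kinase that drives entry into mitosis and progress through it, had 7.35, 7.53, 7.0 and 7.41 in KO T cells and 6.80, 7.01 and 6.55 in WT T cells, a difference of 0.53 (SE 0.17). KO array 3 of Plk1 lay just below WT array 2, so the groups overlapped. Ect2, which activates RhoA in cytokinesis, differed by 0.31 (SE 0.11), with 5.07 to 5.25 in KO T cells and 4.67 to 4.97 in WT T cells. Prc1, which bundles microtubules of the central spindle, differed by 0.44 (SE 0.19), and Mki67, the gene of the proliferation marker Ki-67, by 0.24 (SE 0.15). The groups of Prc1 and Mki67 overlapped. The 2 members that were lower in KO T cells were the kinetochore genes Nuf2, at -0.42 (SE 0.49), and Spc25, at -0.21 (SE 0.22), whose proteins are partners of Ndc80 in one complex. Both signs rest on 1 WT array, since Nuf2 differed by 0.03 without WT array 3 and Spc25 by 0.08 without WT array 1.

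Genes of DNA replication lay the same way with smaller differences. Of 39 listed, 38 were measured, of which 34 were higher and 4 lower in KO T cells, with a median of 0.15. An unadjusted p under 0.05 was reached by 0 of them, beside 3.42% of all genes, and limma called 0 after adjustment. The groups did not overlap for 2 higher members and 1 lower member, beside 4.07% of all genes. Gins1, a subunit of the replicative helicase, had 6.06, 5.72, 5.95 and 5.98 in KO T cells and 5.24, 5.52 and 5.62 in WT T cells. Its difference was 0.47 (SE 0.22) and its groups did not overlap. Rrm1, a subunit of ribonucleotide reductase, differed by 0.27 (SE 0.13), also without overlap. Uhrf1, which helps to copy DNA methylation, differed by 0.45 (SE 0.22) and Cdc6, which loads the helicase, by 0.41 (SE 0.21). The 4 lower members were Cdc45, a part of the helicase, at -0.23, Rfc3, of the clamp loader, at -0.22, Ccne2, a cyclin of S phase entry, at -0.04, and the thymidylate synthase gene Tyms at -0.02. Without WT array 3, Ccne2 differed by 0.10 and Tyms by 0.01, and without KO array 1 by 0.13 and 0.09. In the windows of the replication genes TTTGAA was found in 3 of 36 (8.33%) and CCAAT in 52.8%.

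A score per array, the mean of a list's genes after each gene's mean over the 7 arrays was subtracted, shows how far single arrays carried these medians. The mitosis score was 0.02, 0.09, -0.08 and 0.31 in KO T cells and -0.12, -0.06 and -0.16 in WT T cells. KO array 3 lay within the WT range, and KO array 4 was far above the rest. The replication score was 0.00, 0.08, -0.04 and 0.24 in KO T cells and -0.09, -0.13 and -0.06 in WT T cells, with no overlap and again with KO array 4 on top. Without KO array 4 the mitosis median was 0.13, with 30 of 39 genes higher, and the replication median 0.12, with 30 of 38 genes higher. Without KO array 3 the mitosis median was 0.23 and 37 genes were higher. The part of single arrays in these medians beyond these values was not tested. Side by side, the median of the mitosis genes was 0.38 for KO T cells in KO hosts minus WT T cells in WT hosts, and 0.16 for WT T cells in KO hosts minus WT T cells in WT hosts. These values share arrays with the 0.21 between the T cell genotypes, so they are no separate evidence.

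**Figure D4:**
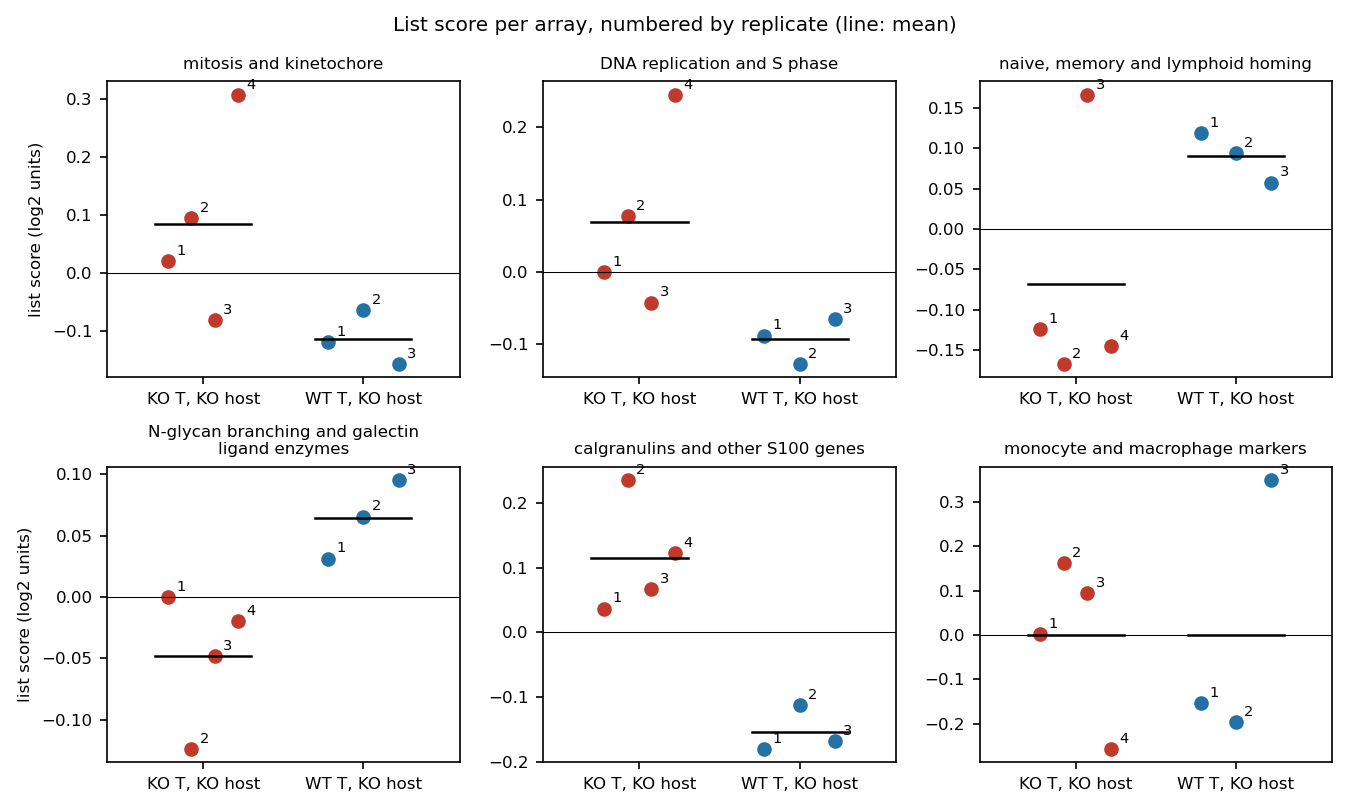
Scores of 6 gene lists (vertical axes, log2 units, mean over the 7 arrays set to 0) in each array of KO T cells (red) and WT T cells (blue) in KO hosts, numbered by replicate, with group means as lines. The groups do not overlap for replication, N-glycan and S100 genes, and overlap for all other lists of the 41. The S100 score includes S100a8 and S100a9 and was not computed without them. KO array 4 is highest for both cell division lists, and KO array 3 lies above the other KO arrays for the naive and memory list.

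Regulators of quiescence were split. Of 18 measured CDK inhibitors and quiescence genes, 9 were higher and 9 lower in KO T cells, with a median of 0.02. Klf2, a transcription factor that keeps T cells quiescent and drives their exit from tissue, had 7.15, 6.84, 6.89 and 7.02 in KO T cells and 7.65, 7.58 and 7.19 in WT T cells in KO hosts. The groups came close but did not overlap, and the difference was -0.50 (SE 0.16, limma adjusted p = 1). WT T cells in WT hosts lay at 6.86 to 7.43 for Klf2 and overlapped both groups. Mxd4, a Myc antagonist, differed by -0.33 (SE 0.12) without overlap. Lin54, the DNA-binding part of the DREAM complex, differed by 0.46 (SE 0.19) and Klf4, another quiescence factor, by 0.64 (SE 0.29), both with overlap.

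Genes of naive and memory T cells and of homing to lymph nodes leaned lower. Of 20 listed, 17 were measured, of which 5 were higher and 12 lower in KO T cells, with a median of -0.17. An unadjusted p under 0.05 was reached by 2, beside 3.42% of all genes. They were Ccr7 and Klf2, which is also in the quiescence list. Ccr7, the chemokine receptor that guides T cells into lymph nodes, had 9.06, 8.94, 9.41 and 8.77 in KO T cells and 9.58, 9.54 and 9.28 in WT T cells, a difference of -0.42 (SE 0.15). KO array 3 overlapped the WT arrays, and WT T cells in WT hosts lay at 9.45 to 9.59. Satb1, a chromatin organizer of T cells, showed the same array apart, with 6.86, 6.66, 7.73 and 6.53 in KO T cells and 7.23, 7.56 and 7.44 in WT T cells, a difference of -0.47 (SE 0.26). Bcl6, a repressor active in memory precursors, was higher by 0.32 (SE 0.17). The list's score was -0.12, -0.17, 0.17 and -0.15 in KO T cells and 0.12, 0.09 and 0.06 in WT T cells. Array 3 was above all WT arrays and the other 3 KO arrays below all of them, and without array 3 the median was -0.27. Without KO array 2 the median was -0.09 and without KO array 1 it was -0.11. Array 3 is also the array that stood apart on the first principal component, and its part in these values beyond them was not tested.

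The other galectins did not separate the groups. Of 10 galectin genes listed, 8 were named on the array and 6 were tested. Lgals1, the gene of galectin-1, which kills or restrains activated T cells, had 10.60, 10.64, 10.58 and 10.85 in KO T cells and 10.67, 10.60 and 10.66 in WT T cells, a difference of 0.03 (SE 0.11). Lgals8 and Lgals9, whose proteins carry a pair of carbohydrate-binding domains, differed by 0.13 (SE 0.10) and 0.06 (SE 0.11). Lgals4 differed by -0.06 (SE 0.25) and Lgals7 by 0.00 (SE 0.15). For each of these 5 genes the groups overlapped, beside 4.07% of all genes without overlap.

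Genes of galectin-3's known partners on the cell surface were spread around 0. Of 12 measured, 7 were higher and 5 lower, with a median of 0.02. All 12 had groups that overlapped, beside 4.07% of all genes without overlap, so in a list this short the count says little. Lag3, an inhibitory receptor that binds class II molecules, had 9.72, 9.52, 9.34 and 9.45 in KO T cells and 9.40, 9.69 and 9.35 in WT T cells, a difference of 0.02 (SE 0.13) whose sign turned with single arrays left out. Ptprc, the gene of the phosphatase CD45, and Lgals3bp, a secreted glycoprotein bound by galectins, both differed by -0.10. The integrin chain gene Itga4 differed by -0.29 (SE 0.26) and the transferrin receptor gene Tfrc by 0.15 (SE 0.14). Of 8 partners inside the cell, 7 were higher and 1 lower, with a median of 0.09 that was 0.02 without KO array 3 and 0.17 without KO array 2. Tsg101, a part of the sorting machinery of endosomes, differed by 0.49 (SE 0.24), Anxa7 by 0.28 (SE 0.17) and Ctnnb1, the gene of beta-catenin, by 0.18 (SE 0.14). Gemin4, of the complex that assembles splicing particles, differed by -0.30 (SE 0.20). All 8 pairs of groups overlapped, beside the same 4.07% of all genes without overlap.

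Most enzymes that build the glycans galectins bind had lower means in KO T cells, and none was called. Of 23 listed, 22 were measured, of which 5 were higher and 17 lower, with a median of -0.12. An unadjusted p under 0.05 was reached by 0, beside 3.42% of all genes. The score lay at -0.12 to 0.00 in KO T cells and at 0.03 to 0.10 in WT T cells, without overlap. Among the 41 lists, the scores overlapped for all but this one, the replication list and the S100 list. The S100 score includes S100a8 and S100a9, described below. No test was run on the scores. B4galt1, which adds the galactose that galectins recognise, had 7.01, 6.96, 7.94 and 7.20 in KO T cells and 7.45, 7.81 and 7.67 in WT T cells, a difference of -0.37 (SE 0.21). KO array 3 again lay apart, above all WT arrays. Mgat5, the branching enzyme that makes the preferred ligands of galectin-3, had 10.47, 7.73, 8.16 and 9.28 in KO T cells and 9.47, 9.68 and 9.84 in WT T cells. The KO arrays of Mgat5 spread to both sides of the WT arrays, and the difference of -0.76 had an SE of 0.50. C1galt1c1, the chaperone of O-glycan core synthesis, differed by -0.26 (SE 0.17). Man2a2, a Golgi mannosidase, was one of the 5 higher members, at 0.19 (SE 0.12), with 6.14 to 6.21 in KO T cells and 5.82 to 6.09 in WT T cells.

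The calgranulin genes S100a8 and S100a9, whose proteins form a complex abundant in neutrophils and monocytes, differed most among the S100 genes. S100a9 had 5.90, 5.69, 6.17 and 5.61 in KO T cells and 4.29, 5.27 and 4.91 in WT T cells in KO hosts, with all KO arrays above all WT arrays. WT T cells in WT hosts gave 4.44, 4.64, 4.62 and 5.29. The difference was 1.02 (SE 0.25, limma adjusted p = 1). S100a8 had 7.96, 8.80, 8.91 and 7.13 in KO T cells and 5.17, 7.52 and 7.31 in WT T cells, which overlapped at KO array 4, and 4.89, 6.41, 5.67 and 4.93 in WT T cells from WT hosts. Its difference was 1.54 (SE 0.59). Of 14 tested genes of the list, which holds the S100 family and S100pbp, the gene of a binding partner, 9 were higher and 5 lower in KO T cells, with a median of 0.09, and S100a1 followed at 0.45 (SE 0.21). That median was 0.18 without WT array 1 and 0.20 without KO array 3. The list's score, a mean over its genes, differed by 0.27 between the groups. It includes S100a8 and S100a9 and was not computed without them, so its separation cannot be credited to the other S100 genes. Neutrophil markers had smaller differences. Of 16 listed, 12 were tested and 4 lay under the floor. Of the 12, 10 were higher and 2 lower (83.3% higher, beside 53.2% of all genes). Their median was 0.07, and 0.01 without WT array 2. Their mean log2 signal ran from 4.93 to 5.12 in KO T cells and from 4.88 to 5.03 in WT T cells. These signals are not far above the floor of 4.33, where differences can be compressed. Csf3r, the receptor for G-CSF, differed by 0.21 (SE 0.19), the neutrophil elastase gene Elane by 0.11 (SE 0.14), and Cebpe, a transcription factor of granulocytes, by -0.28 (SE 0.16), without overlap. The part of such cells in the calgranulin values was not tested.

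The effector program of the T cells showed small differences. Counted on rounded medians, 29 of the 41 lists changed sign when 1 of the 7 arrays was left out. Lists with medians near 0 therefore have no settled direction. Of 12 cytotoxic granule genes, 7 were higher and 5 lower, with a median of 0.02. Without KO array 4, 6 were higher and 6 lower, with a median of -0.0, which was not counted as a change of sign. Gzmb, the gene of granzyme B, had 11.76, 11.82, 11.55 and 12.09 in KO T cells and 11.80, 11.74 and 11.58 in WT T cells, a difference of 0.10 (SE 0.14). The perforin gene Prf1 differed by 0.11 (SE 0.16) and Serpinb6b, a protease inhibitor, by -0.18 (SE 0.19). Of 15 cytokine and chemokine genes, 11 were higher and 4 lower, with a median of 0.10 that was 0.04 without KO array 2 and 0.06 without WT array 1. Ifng, the gene of interferon gamma, had 10.24, 10.17, 9.82 and 10.34 in KO T cells and 9.52, 10.10 and 10.06 in WT T cells, a difference of 0.25 (SE 0.16). Tnf had 9.98, 10.34, 10.11 and 10.13 in KO T cells and 9.74, 9.86 and 9.97 in WT T cells, with no overlap at values that nearly touch, and differed by 0.29 (SE 0.14). Tnfsf10, the gene of the death ligand TRAIL, differed by 0.29 (SE 0.17) and the regulatory cytokine gene Il10 by -0.46 (SE 0.35). Of 19 genes of the interferon gamma response, 8 were higher and 11 lower, with a median of -0.02 that was 0.07 without WT array 2 and 0.01 without KO array 2 or KO array 3, and of 23 genes of the type I interferon response 12 were higher and 11 lower. The chemokine gene Cxcl10 differed by 0.67 (SE 0.33), Cxcl9 by 0.32 (SE 0.23) and Ifit1, an antiviral effector, by -0.56 (SE 0.43), all with overlap. The interferon gamma response members without overlap were lower in KO T cells, beside 4.07% of all genes without overlap. They were Psmb8, at -0.24 (SE 0.16), and Ifngr1, at -0.21 (SE 0.13).

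Receptors and signalling genes of the T cells lay near the median of all genes or slightly below it. Of 23 genes of proximal T cell receptor signalling, 7 were higher and 16 lower, with a median of -0.07. Sla, an adaptor that lowers receptor levels, had 11.44, 11.27, 11.39 and 11.16 in KO T cells and 11.50, 11.62 and 11.51 in WT T cells, a difference of -0.23 (SE 0.12) without overlap. Prkcq, a protein kinase C of the synapse, differed by -0.27 (SE 0.14), the adaptor gene Lat by -0.17 (SE 0.12) and the adaptor gene Grap2 by 0.26 (SE 0.17). Of 15 T cell identity genes, 5 were higher and 10 lower, with a median of -0.05, but without WT array 2 the count was 8 higher and the median 0.05. Of 14 activation and costimulation genes, 3 were higher and 11 lower, with a median of -0.06 that was -0.13 without KO array 3 and -0.03 without KO array 2. Slamf1, at -0.35 (SE 0.16), was the one with an unadjusted p under 0.05, which 3.42% of all genes reached. Cd28, the main costimulatory receptor, differed by -0.29 (SE 0.16).

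Inhibitory receptors were split. Of 13 tested, Pilra included, 6 were higher and 7 lower, with a median of -0.03. Pdcd1, the gene of PD-1, had 9.60, 10.23, 10.01 and 10.20 in KO T cells and 9.79, 9.89 and 9.99 in WT T cells, a difference of 0.12 (SE 0.18). Entpd1, the ectonucleotidase CD39, had 6.45 to 6.59 in KO T cells and 6.28 to 6.31 in WT T cells, a difference of 0.22 (SE 0.11) without overlap. Btla, an inhibitory receptor for HVEM, had 4.10 to 4.49 in KO T cells and 4.61 to 4.92 in WT T cells, with a difference of -0.49 (SE 0.23). Its mean in KO T cells was under the floor, which it passed through the WT arrays. Havcr2, the gene of TIM-3, differed by 0.22 (SE 0.23). Of 19 transcription factors of effector and exhausted cells, 9 were higher and 10 lower, with a median of -0.02, and of 10 killer lectin-like receptors and NK cell markers, 7 were higher and 3 lower, with a median of 0.05. Without KO array 2 only 3 of these 10 were higher, with a median of -0.04, and without KO array 3 the median was 0.18.

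Among chemokine receptors and egress genes, 5 of 17 were higher and 12 lower, with a median of -0.09, but without WT array 1 the count was 9 higher and the median 0.03. Cxcr4, the receptor for CXCL12, had 7.77, 7.79, 8.06 and 8.25 in KO T cells and 8.40, 8.34 and 8.42 in WT T cells, a difference of -0.42 (SE 0.18) without overlap. Cxcr3, which guides effector T cells to inflamed tissue, differed by 0.30 (SE 0.19). In the Bcl2 family and death receptors, 9 of 18 were higher and 9 lower. Bmf, a proapoptotic BH3 protein, had 5.34, 5.67, 5.34 and 5.35 in KO T cells and 5.83, 6.33 and 5.92 in WT T cells, a difference of -0.60 (SE 0.24) without overlap, while Pmaip1, the gene of NOXA, differed by 0.41 (SE 0.28). Osm, a cytokine induced by STAT5, had 4.98 to 5.63 in KO T cells and 5.71 to 5.90 in WT T cells, a difference of -0.43 (SE 0.17), in a list of 14 IL-2 and STAT5 genes of which 7 were higher and 7 lower.

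Metabolic and growth genes showed medians close to that of all genes. Of 21 glycolysis and hypoxia genes, 12 were higher and 9 lower, with a median of 0.04 that was 0.01 without KO array 4, and the glucose transporter gene Slc2a3 differed by 0.47 (SE 0.18), with 5.82 to 6.48 in KO T cells and 5.43 to 5.93 in WT T cells. Of 19 respiratory chain genes, 10 were higher and 9 lower, with a median of 0.00, Ndufa1 of complex I differing by -0.38 (SE 0.18) and Cox4i1 of complex IV by 0.23 (SE 0.12). Of 25 genes of the Myc network and ribosome biogenesis, 14 were higher and 11 lower, with a median of 0.01, but 9 were higher without WT array 3 and 6 without KO array 4, with medians of -0.04 and -0.05. Of these genes, Mnt, a Myc antagonist, differed by -0.33 (SE 0.13). Of 18 cytosolic ribosomal protein genes, 3 were higher and 15 lower, with a median of -0.06, but without WT array 2 the count was 10 higher and the median 0.01. Immediate early genes, TGF-beta genes, amino acid transporters, heat shock chaperones and integrins had medians between -0.04 and 0.04.

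**Figure D5:**
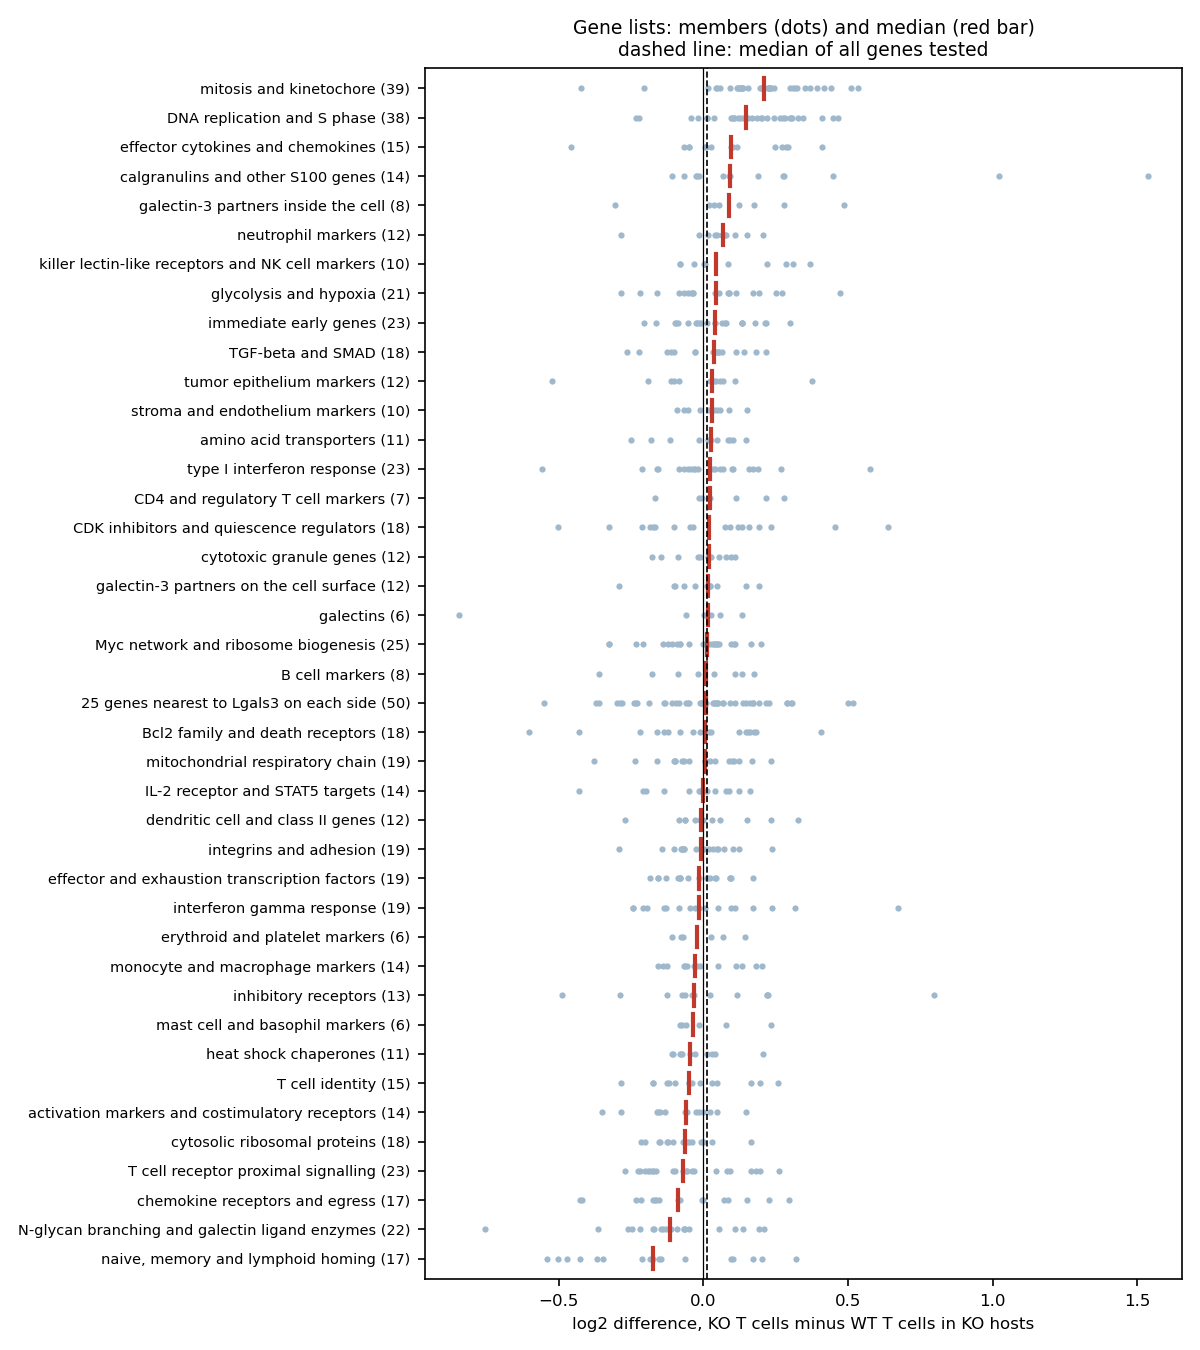
Differences between KO and WT T cells in KO hosts (horizontal axis, log2) for the tested members of each gene list (blue dots, number of genes in brackets), with the median of each list as a red bar and that of all genes as a dashed line. The medians run from -0.17 for naive and memory genes to 0.21 for mitosis genes, and members of most lists lie on both sides of 0.

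Markers of other cells of the tumor were also read. Dendritic cell and class II genes (12 tested) had 5 higher and 7 lower and a median of -0.01, B cell markers (8 tested) 4 and 4, and markers of CD4 and regulatory T cells (7 tested) 4 and 3. Tumor epithelium markers (12 tested) had 7 higher and 5 lower and a median of 0.03, stroma and endothelium markers (10 tested) 6 and 4, erythroid and platelet markers (6 tested) 3 and 3, and mast cell and basophil markers (6 tested) 2 and 4. Erbb2, the mouse gene of the oncoprotein neu, of which NT2.5 tumors carry the rat form, had 5.68, 4.68, 5.34 and 5.38 in KO T cells and 5.58, 5.88 and 5.92 in WT T cells, a difference of -0.52 (SE 0.26). Muc1, an epithelial mucin, differed by 0.37 (SE 0.13) and Cd209a, a dendritic cell lectin, by 0.33 (SE 0.13), both without overlap at signals of 4.56 to 5.27. The values are on a log2 scale with no true 0, so no marker could be read as absent.

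Genes beside Lgals3 on its chromosome were read because a knockout strain can carry neighbouring alleles of another strain. Of the 25 nearest genes tested on each side, 28 were higher and 22 lower in KO T cells, with a median of 0.01. Non-overlapping groups were found for 4 of the 50, beside 4.07% of all genes. Ero1a, an oxidase of the endoplasmic reticulum, differed by 0.52 (SE 0.17), with 7.97 to 8.36 in KO T cells and 7.49 to 7.72 in WT T cells. The olfactory receptor gene Olfr740 differed by -0.55 (SE 0.19), Gnpnat1 by 0.30 (SE 0.17) and Fbxo34 by 0.22 (SE 0.13). As the mean of its rows, Gnpnat1 differed by -0.17. None of the 50 passed the threshold of limma, and 3 had an unadjusted p under 0.05, beside 3.42% of all genes. No alternative setting gave a call for any gene named in the text.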

How the data were processed

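Per the labels' protocols, an Absolutely RNA Nanoprep kit served for the RNA of the sorted T cells, and an Ovation Pico WTA kit for its amplification. The deposited table holds log2 signals, from 1.27 to 14.4, in 115830 rows. RMA, Partek and the build mm9 are named in the submitters' processing notes, without versions. The number of arrays limits the precision, and amplification of little RNA can add noise between arrays.

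By the platform annotation 25539 rows (22.0%) name 1 gene, 2300 several and 87991 none. Of 20259 genes, the row of highest mean was kept, and genes under the 25th percentile of mean signal (4.33) were left out. Groups came from the labelled genotypes. The main test was limma 3.58.1 in R 4.3.3 (lmFit and eBayes, all 11 arrays, group means alone, Benjamini-Hochberg adjustment over 15194 genes, threshold 0.05). The p-values cover only how much these samples vary, which may be technical. At most 21 values were identical between any pair of arrays.

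The members and the gene lists were chosen with earlier results of these data known. Named genes were the 12 of lowest p in each direction, the 5 of largest difference in each direction among genes of at least median signal without overlap, up to 4 members of lowest p per list, the galectins, the members of lists with at most 15 measured genes, a set of marker genes, and neighbours of Lgals3 without overlap. Not every such gene is printed. Nuf2, Spc25, Cdc45, Rfc3, Tyms and Ccne2 were named after their values were seen. List entries without a row naming 1 gene were not analysed here. Neighbours of Lgals3 were taken from the order of genes in the RefSeq table, whose assembly differs from the authors' build.

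The 44971 rows above the filter that name no gene or several went into a fit of their own, where limma called 0, with 1796 at an unadjusted p under 0.05. On simulated data with 200 of 15194 genes changed, the test called 19.4% of changes of 0.5, 74.6% of 1 and 95.5% of 2, with 10 false calls. The noise was drawn separately for each gene and array with the spread of that gene. Shifts that many genes of an array share were not simulated, so these shares may not hold for the real arrays. Replicate numbers are shared between groups, but deviations of same-numbered arrays correlated at 0.08, -0.04 and 0.12, so the numbers were not taken to pair the samples. The alternatives concerned normalization, filters, rows per gene, array weights, the variance model, a replicate block, which samples were fitted, and each array left out.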

Additional observations from a re-analysis of the deposited data

Results flagged for a closer look

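In all, 184 groups of 4 arrays were checked for 1 array far from the other 3. They were genes and list scores in KO T cells and, for some genes, WT T cells in WT hosts. Of the 184, 7 were marked, all in KO T cells, and chance marks about 1 in 20. For Man2a2, KO array 4 had a log2 signal of 6.14, against 6.20 to 6.21 in the other KO arrays, a gap that is small beside the other genes. For Uhrf1, KO array 4 had 8.10, against 8.57 to 8.59. For Cdc45, KO array 1 had 6.19, against 6.52 to 6.57. For Klf4, KO array 4 had 8.56, against 9.54 to 9.67, within the range of the WT T cells. For Bmf, KO array 2 had 5.67, against 5.34 to 5.35. KO array 3 had a score of 0.17 for naive, memory and homing genes, against -0.17 to -0.12 in the other KO arrays, and a score of 0.08 for integrins and adhesion genes, against -0.04 to -0.03. Array 3 is the one that stood apart on the first principal component.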

How the results depend on the processing

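Over 21 alternative fits 0 genes passed the limma threshold, and at an adjusted p under 0.1 the count was also 0. Over the same 21 fits Lgals3 ran from -0.97 to -0.75 with adjusted p of 0.441 to 1. Leaving out 1 array at a time gave 0 calls, 469 to 818 genes with an unadjusted p under 0.05, and differences of Lgals3 of -0.97 to -0.75. Medians then ran from 0.129 to 0.233 for mitosis, 0.118 to 0.196 for replication, -0.273 to -0.085 for naive and memory, -0.11 to -0.09 for N-glycan and 0.081 to 0.199 for S100 genes, which had 0.179 without WT array 1. The filter at the 50th percentile gave 338 genes with an unadjusted p under 0.05, with fewer genes tested. Counted on rounded medians, the median of 29 of the 41 lists changed sign in at least 1 alternative. A replicate block on the 7 arrays, which drops the unpaired KO array 4, gave a mitosis median of 0.129 with 30 of 39 genes higher, and on all 11 arrays 0.156 with 36 higher, and 0 genes passed in either. The block gave medians for the Myc list of -0.052 with 6 of 25 genes higher on 7 arrays and -0.039 with 9 on 11, and for cytokines of 0.048 on 11 arrays. For 132 of the single genes named, signs turned in 28 of 2751 comparisons, spread over 12 genes. Since 0 genes were called in any fit, this could not be set against called genes. With 1 array left out the differences ran from -0.03 to 0.06 for Lgals1, -0.17 to 0.14 for Lgals4, -0.06 to 0.07 for Lgals7, -0.05 to 0.13 for Lag3, -0.71 to 0.03 for Nuf2, -0.40 to 0.08 for Spc25, -0.10 to 0.09 for Tyms, -0.20 to 0.13 for Ccne2, -0.11 to 0.06 for Cd8a, -0.09 to 0.12 for Cd8b1 and -0.06 to 0.25 for Prf1. With a replicate block Lgals1 gave -0.03 on 7 arrays and -0.01 on 11. Array weights gave 0.00 for Tyms and 0.04 for Cd8b1, cyclic loess -0.00 for Lgals7 and 0.02 for Cd8b1, quantile normalization 0.02 for Cd8b1, and the mean of a gene's rows -0.17 for Gnpnat1. The cause of these changes was not tested.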
